A study of Rattus norvegicus with 4 samples.

Results

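The proteasome is the protease complex that degrades proteins tagged with ubiquitin. Its 20S core is a barrel of alpha and beta subunit rings, with the catalytic sites on 3 of the beta subunits, and its 19S cap unfolds substrates with a ring of ATPases. In cells exposed to interferon the inducible subunits Psmb8, Psmb9 and Psmb10 take the place of the constitutive Psmb5, Psmb6 and Psmb7 in newly built cores, and Psme1 and Psme2 form the PA28 activator, which opens the core. This immunoproteasome is known for producing peptides that are shown to T cells on class I molecules.

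The genes described are those whose annotated symbol starts with Psma, Psmb, Psmc, Psmd, Psme or Psmg followed by a digit, each read from the probe set whose mean was highest. There were 45 such genes among the 14218 genes of the array, and all 45 reached 6 on the log2 scale on some array, the filter that 8802 genes passed. They comprised 30 constitutive subunit genes, the 5 immunoproteasome genes Psmb8, Psmb9, Psmb10, Psme1 and Psme2, the activator gene Psme4, 4 chaperone genes of 20S assembly and 3 of 19S assembly. The symbols Psmc3ip, a meiotic recombination factor, and Psme3ip1, a partner of the Psme3 activator, met the rule by their letters but are not subunits. Psmb6, the constitutive counterpart of Psmb9, and the activator gene Psme3 had only probe sets shared with other genes in the annotation, and Psma8 and Psmb11 were matched by none.

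RNA came from ROE2, an immortalized rat oral epithelial line. It was derived from fetal tongue (18 days old) of a Wistar transgenic animal. All 4 samples carry the temperature-sensitive SV40 large T antigen, an oncoprotein that keeps cells dividing at the permissive temperature. Cells were held at 33 °C for 24 h on collagen in medium with 2% serum and 10 ng/ml EGF, and then for 0, 3, 6 or 9 days at 37 °C, with day 0 as the control. The series asks about genes of oral epithelial cell differentiation. Each day was measured on 1 array, so no difference below has a replicate error or a test, and day and array cannot be told apart. Day 0 had 0 days at 37 °C. In a difference from day 0, the change of temperature and the time in culture thus cannot be told apart either. Higher and lower below mean 2-fold or more from day 0, which is 1 on the log2 scale, and smaller differences are given as values.

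The arrays carried the labelled cell type. Of 9 listed markers of stratified epithelium, 8 were measured and all 8 exceeded the value of 6, with Krt14 and Krt5 at 14.11 and 13.44 on day 0. Krt13, the keratin of differentiating oral epithelium, read 9.68, 12.23, 13.55 and 13.91. Leukocytes carry the immunoproteasome without stimulation, so their markers were read too. Of 10 measured, 3 passed the value of 6 (Cd14, Cd68 and Laptm5). Ptprc, Cd74, Tyrobp, Fcer1g, Cd3e and Coro1a were not above the brightest bacterial control probe set on any array, and Lyz2 was above it on 2 arrays. The summed log2 level of the 10 leukocyte markers was between 45.1 and 46.9 over the 4 days, while Cd14 read 10.66, 9.68, 9.18 and 8.80 and Cd68 5.32, 6.54, 6.27 and 6.18 on days 0, 3, 6 and 9. Most of the 10 did not reach 6, so the sum cannot show whether leukocyte content changed. None of the 7 fibroblast and 4 endothelial markers reached 6. The part of Cd14, Cd68 and Laptm5 in the results below was not tested. In bulk RNA, fewer cells that express a gene and less RNA per cell cannot be told apart.

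On day 6, 5 of the 45 genes were 2-fold or more lower than on day 0, against 8.08% of all 8802 genes, and none was higher, against 5.74%. These 5 were the immunoproteasome genes Psmb9, Psmb8, Psmb10 and Psme2 and the assembly chaperone gene Psmg4. On day 3 only Psmb10 was lower (1 of 45, against 2.15% of all genes), and on day 9 Psmb9, Psmb8, Psme2 and Psmg4 were (4 of 45, against 6.25%). Psmb10 reached 6 only on days 0 and 9, so it is in the counts of days 3 and 6 only through days on which it was higher. No member was 2-fold higher on day 3 or day 9, where 4.31% and 5.57% of all genes were. As a share, the count of members that were 2-fold lower was thus close to that of all genes, while none was higher on any day, below the share of all genes. Of the 5 genes, 4 belonged to the immunoproteasome and 1 to the assembly chaperones. On each of the 3 days 0 of 30 constitutive subunit genes were 2-fold lower or higher, against the shares of all genes given above. Of these 30 genes 26 had a mean of 10 or more, and the 2-fold share among all genes that bright was not computed.

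At a threshold of 1.5-fold, 10, 11 and 6 members were lower on days 3, 6 and 9, against 10.0%, 22.9% and 19.6% of all genes, and 1, 0 and 1 were higher, against 10.2%, 12.1% and 12.0%. At 3-fold, 0, 2 and 1 were lower, against 0.534%, 1.87% and 1.48%. With arrays centred on the median gene, Psmb10 and Psme2 were at -0.99 on day 6 and Psme2 at -0.98 on day 9, just short of 2-fold, which left 3 genes lower on each of those days. The hybridisation spike-ins, transcripts added to each array, read a median of 0.14, 0.39 and 0.63 above day 0. Centred on them, 3, 9 and 11 members were lower on days 3, 6 and 9, among them the constitutive Psmc3 on day 6 and Psmb2 and Psmb3 on day 9. This centring lowers every gene of an array by the same amount. The share of all genes was not computed under either centring, so these counts cannot be set against it.

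**Figure D1:**
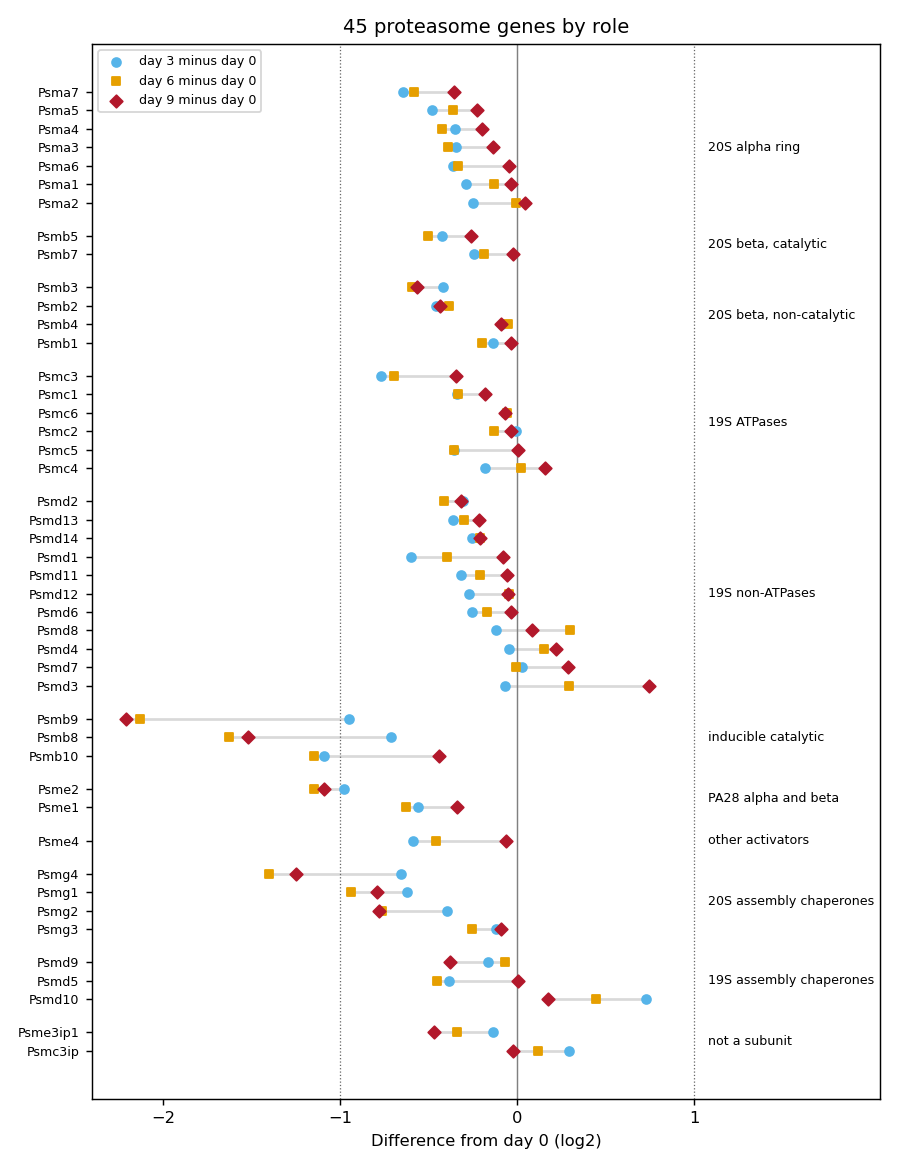
Difference from day 0 on the log2 scale for each of the 45 genes (rows, by role) on day 3 (circles), day 6 (squares) and day 9 (diamonds), from 1 array per day. Dotted lines mark 2-fold. Points beyond the lower line belong to Psmb9, Psmb8, Psmb10, Psme2 and Psmg4, while the 30 constitutive subunit genes lie between -0.77 and 0.74.

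Psmb9, the inducible counterpart of the caspase-like subunit, differed most. Its log2 value was 8.24 on day 0, 7.28 on day 3, 6.11 on day 6 and 6.02 on day 9. The value was lower on each later array than on the one before, 4.37-fold below day 0 on day 6 and 4.63-fold on day 9. The step from day 3 to day 6 was -1.18, the 1 member with a 2-fold step there, where 1.60% of all genes were 2-fold lower.

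Psmb8, the inducible chymotrypsin-like subunit, read 8.27, 7.56, 6.65 and 6.75 on days 0, 3, 6 and 9. It was 1.64-fold below day 0 on day 3, 3.09-fold on day 6 and 2.87-fold on day 9, so most of the difference was present by day 6 and the last 2 arrays read nearly alike.

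Psmb10, the inducible trypsin-like subunit, took another course. Its values were 6.84, 5.75, 5.70 and 6.40, at -1.09 and -1.15 against day 0 on days 3 and 6 but -0.44 on day 9. The day 9 array read 0.70 above the day 6 array, while Psmb8 and Psmb9 differed between these arrays by 0.11 and -0.08. Psmb10 was the dimmest of the 45 probe sets on its brightest array, though above the bacterial controls, of which the brightest read 4.19 to 4.56.

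The PA28 genes also lay below day 0 on all 3 later arrays. Psme2, the beta subunit, read 10.61, 9.63, 9.47 and 9.52, with differences of -0.98, -1.15 and -1.09, so it had nearly its full difference by day 3. Psme1, the alpha subunit, read 11.27, 10.71, 10.64 and 10.93, with differences of -0.56, -0.63 and -0.34, short of 2-fold except on day 6 when centred on the spike-ins, at -1.02. With the mean over its probe sets, of which the other is dim, Psme1 was at -0.17 on day 3. The PA28 subunits assemble into 1 ring, but their genes differed from day 0 by unequal amounts, as did those of the 3 inducible catalytic subunits.

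**Figure D2:**
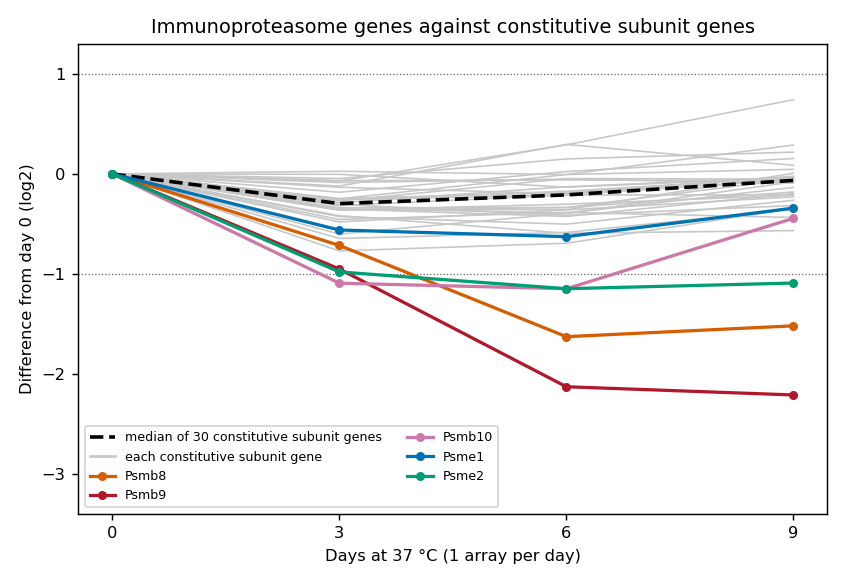
Difference from day 0 on the log2 scale over days at 37 °C for the 5 immunoproteasome genes (coloured lines), each of 30 constitutive subunit genes (grey) and their median (dashed), with 1 array per day and dotted lines at 2-fold. Psmb9 ends at -2.21 and Psmb8 at -1.52, Psmb10 turns back to -0.44, and the constitutive median dips to -0.30 on day 3 and returns to -0.06.

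Set against the constitutive subunits, the 5 immunoproteasome genes had a median difference from day 0 of -0.95 on day 3, -1.15 on day 6 and -1.09 on day 9. The 30 constitutive genes had medians of -0.30, -0.21 and -0.06, and all 8802 genes -0.05, -0.18 and -0.14. The gap between the 2 lists was -0.65, -0.94 and -1.03, and a common shift of an array cannot alter it. On day 6, 4 of the 5 lay below every constitutive gene, the lowest of which was at -0.69, and Psme1 lay below all but 1. On day 9 Psmb8, Psmb9 and Psme2 lay below the lowest constitutive gene, at -0.57, whereas Psmb10 and Psme1 were inside the constitutive range.

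Each inducible catalytic subunit was also compared with the subunit it replaces, by their differences from day 0, since levels of different probe sets cannot be compared. Psmb5, the constitutive chymotrypsin-like subunit, read 12.30, 11.88, 11.80 and 12.04. Psmb8 parted from it by -0.29 on day 3, -1.13 on day 6 and -1.26 on day 9. With the mean over all probe sets the gap on day 3 was -0.59, because Psmb5 has 2 further probe sets, both below 5 on every array. Psmb7, the trypsin-like subunit, read 10.87, 10.63, 10.68 and 10.85. Psmb10 parted from it by -0.85 and -0.96 on days 3 and 6 and by -0.42 on day 9. A probe set that the annotation gives to both Psmb6 and its copy Psmb6l1, and which can be assigned to neither, read 11.02, 10.88, 11.04 and 11.29. Psmb9 parted from it by -0.81, -2.15 and -2.48.

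**Figure D3:**
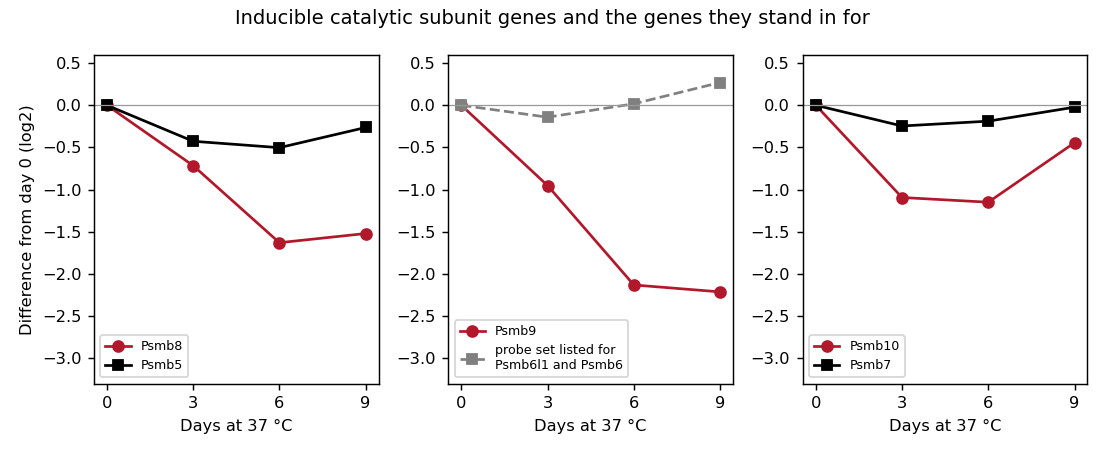
Difference from day 0 on the log2 scale over days at 37 °C for Psmb8 with Psmb5, Psmb9 with the probe set listed for Psmb6l1 and Psmb6, and Psmb10 with Psmb7, 1 array per day. The lines part by -1.26, -2.48 and -0.42 on day 9, and in the Psmb10 panel the gap narrows after day 6.

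Promoters of the members are shown because interferon acts on these genes through short elements near their starts. The interferon-stimulated response element, to which IRF factors bind, was searched by its core, GAAA and GAAA with any 2 bases between, on both strands of 300 base windows from RefSeq (GRCr8) that run from 250 bases before to 50 after the annotated start. Of the 45 genes 41 matched a window by symbol. Windows of Psma7, Psmd6, Psmd12 and Psmd14 were not used here. The core stood in 7 of the 41 windows and in 3.77% of all 27457 windows. They were Psmb8, Psmb10, Psme2, Psmg4, Psma4, Psmb3 and Psmd7. Of the 5 immunoproteasome genes 3 held the core and Psmb9 and Psme1 did not, and of 26 constitutive genes 3 held it. The Psme1 window ends in tttcgctt, letters that also open the match in Psmb8, so a match across its end could not be read. Psma4, Psmb3 and Psmd7 differed from day 0 by -0.43, -0.59 and -0.01 on day 6. The lines below give the windows of the 5 genes that were 2-fold lower, 5′ to 3′ in the direction of transcription, with matches to the core in capitals.

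Psmb8: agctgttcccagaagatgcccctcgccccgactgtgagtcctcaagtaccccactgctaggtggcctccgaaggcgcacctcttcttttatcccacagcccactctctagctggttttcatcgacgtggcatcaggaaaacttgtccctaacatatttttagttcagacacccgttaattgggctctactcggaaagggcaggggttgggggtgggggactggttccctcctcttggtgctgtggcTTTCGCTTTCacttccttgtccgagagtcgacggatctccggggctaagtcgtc
Psmb10: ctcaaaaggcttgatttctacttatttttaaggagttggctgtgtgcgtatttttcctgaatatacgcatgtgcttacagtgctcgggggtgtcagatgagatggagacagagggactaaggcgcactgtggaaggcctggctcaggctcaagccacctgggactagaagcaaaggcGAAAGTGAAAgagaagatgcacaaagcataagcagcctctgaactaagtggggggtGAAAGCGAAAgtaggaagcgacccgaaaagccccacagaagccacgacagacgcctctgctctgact
Psme2: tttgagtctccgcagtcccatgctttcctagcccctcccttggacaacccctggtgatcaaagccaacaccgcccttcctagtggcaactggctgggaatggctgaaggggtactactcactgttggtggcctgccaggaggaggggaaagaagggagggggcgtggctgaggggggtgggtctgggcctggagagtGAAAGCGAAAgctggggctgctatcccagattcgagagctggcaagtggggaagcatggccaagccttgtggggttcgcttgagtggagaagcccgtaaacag
Psmg4: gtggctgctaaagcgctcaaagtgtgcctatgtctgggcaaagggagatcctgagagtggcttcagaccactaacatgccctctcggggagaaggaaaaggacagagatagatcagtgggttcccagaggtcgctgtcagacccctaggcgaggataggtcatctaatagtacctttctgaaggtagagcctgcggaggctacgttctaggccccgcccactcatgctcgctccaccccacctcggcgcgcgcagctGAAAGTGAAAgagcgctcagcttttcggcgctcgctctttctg
Psmb9: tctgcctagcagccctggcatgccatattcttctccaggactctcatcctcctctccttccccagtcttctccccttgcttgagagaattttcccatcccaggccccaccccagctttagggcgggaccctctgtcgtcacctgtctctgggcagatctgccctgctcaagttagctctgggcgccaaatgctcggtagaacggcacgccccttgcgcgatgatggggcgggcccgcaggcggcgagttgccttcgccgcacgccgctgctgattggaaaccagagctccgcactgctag

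The Psmb8 window (chr20:4656982-4657281, minus strand) held the core across its start, from base -4 to 6. Here the start is base 1 and the base before it -1. The Psmb10 window (chr19:50743243-50743542, minus strand) held the core at -73 to -64 and at -17 to -8, and the Psme2 window (chr15:33052702-33053001, minus strand) at -53 to -44. In Psmg4 (chr17:30923324-30923623, minus strand) it lay after the start, at 8 to 17. The letters gaaagcgaaa were the same in Psme2 and in the nearer of the Psmb10 matches, and gaaagtgaaa the same in Psmg4 and in the farther. Read on the opposite strand, the Psmb8 match tttcgctttc also gives gaaagcgaaa, and the match tttcactttc of the constitutive Psmb3 gives gaaagtgaaa.

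The Psmb9 window (chr20:4668750-4669049, plus strand) did not hold the core, and 44 of its bases overlap the window of Tap1, which runs the other way. Tap1, the gene of a transporter that carries peptides to class I molecules, is the next protein-coding gene on that side, with starts 457 bases apart, and its window held the core as tttcggtttc at chr20:4668655-4668664, 336 to 345 bases before the Psmb9 start. Tap1 is the 1 protein-coding gene between Psmb9 and Psmb8. A match is a description of these letters and not of binding.

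Motifs of other factors, with fewer fixed bases, were common across the windows. The NF-kappaB-like motif, GGG and CC with any 5 bases between, stood in 26 of the 41 windows and 48.5% of all, the antioxidant response type TGANNNNGC, to which Nfe2l1 and Nfe2l2 bind, in 22 and 40.4%, and CCAAT in 21 and 37.7%. No match says only that these letters are not in the window.

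In the deposited values the constitutive subunit genes shared a shallow dip. On day 3, 29 of 30 were below day 0, against 55.8% of all genes, with a median of -0.30. On days 6 and 9, 26 and 23 of 30 were below it, against 62.7% and 61.0%. In 24 of the 30 (80.0%) the value was below day 0 on day 3 and higher on day 9 than on day 3, a course that 25.4% of all genes took. On day 9, 28 of 30 lay within 0.5 of day 0, against 61.5% of all genes. That share was not computed among genes as bright, nor under other scalings. The median of -0.06 was above 0, at 0.04, with arrays centred on the median gene. It was at 0.01 when centred on the 1685 genes with a mean of 10 or more, but at -0.70 when centred on the spike-ins. The day 3 median was between -0.26 and -0.44 under these scalings. Centred on the spike-ins the median read -0.44, -0.60 and -0.70 on days 3, 6 and 9, so no return was seen there. The count of 24 genes was not repeated under that scaling. The 1685 bright genes had a median of -0.03 on day 3, whereas the 3 control probe sets for Gapdh were at -0.45 to -0.36 and the 3 for beta-actin at -0.73 to -0.45 on that array, and their part in the dip was not tested.

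Within the 20S alpha ring, which forms the gated ends of the barrel, all 7 genes were below day 0 on day 3 and all 7 read higher on day 9 than on day 3. Their day 0 values ran from 9.25 for Psma3 to 12.48 for Psma6. Psma7 lay furthest below its own day 0 value on every later array, with 11.47 on day 0, 10.82 on day 3, 10.88 on day 6 and 11.11 on day 9. Psma2 was back near its start, with 11.55, 11.30, 11.55 and 11.60. A brighter probe set that the annotation gives to Psma3 and Psma3l read 12.04, 11.52, 11.46 and 11.92.

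All 6 constitutive beta genes lay below day 0 on each of the later arrays, with medians of -0.34, -0.35 and -0.14 for the catalytic Psmb5 and Psmb7 and of -0.28, -0.29 and -0.26 for the non-catalytic Psmb1, Psmb2, Psmb3 and Psmb4. Of all genes, 44.3% lay below day 0 on all 3 days. With median gene centring Psmb4 turned above day 0 on day 6, at 0.11, and Psmb1, Psmb4 and Psmb7 on day 9, at 0.07, 0.01 and 0.08. Psmb3 did not return, with 12.16, 11.74, 11.57 and 11.59, and its -0.57 was the lowest constitutive value on day 9. Psmb2 likewise read 11.53, 11.07, 11.15 and 11.10. Psmb4 hardly differed, at 12.23, 12.14, 12.18 and 12.14, and Psmb1 was nearest to day 0 on day 9 among the 4 non-catalytic genes, at -0.03.

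The ATPases of the 19S base, which thread substrates into the core, had medians of -0.26, -0.23 and -0.05 over 6 genes. Their day 0 values ran from 10.03 for Psmc1 to 12.02 for Psmc2. Psmc3 dipped most of all 30 constitutive genes, from 11.38 to 10.61 on day 3 and 10.69 on day 6, and read 11.03 on day 9. The brightest probe set of Psmc6 was at -0.07, -0.06 and -0.07 against day 0, while a dimmer one was at -0.08, -0.40 and -0.37. Psmc4, at 11.29, 11.11, 11.32 and 11.45, was the ring's gene furthest above its own day 0 value on day 9, at 0.15.

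The 11 non-ATPase genes of the cap had medians of -0.26, -0.17 and -0.05 and the widest spread of the constitutive groups on day 9, with day 0 values from 9.65 for Psmd3 to 11.53 for Psmd6. Psmd3, a scaffold subunit of the lid, read 9.65, 9.58, 9.94 and 10.40. Its day 6 difference of 0.29 was -0.10 when centred on the spike-ins, and its 0.74 on day 9, or 0.11 when centred on the spike-ins, was the highest difference of the 45 genes on that day. The others above day 0 on day 9 were Psmd7, a lid subunit, at 0.29, the ubiquitin receptor gene Psmd4, at 0.22, and Psmd8, at 0.09. Psmd2, a large scaffold subunit of the base, lay furthest below day 0 on that day at -0.32. Psmd1, its partner scaffold, dipped to -0.60 on day 3 and stood at -0.08 by day 9. Psmd14, the deubiquitinase of the lid, read 11.44, 11.19, 11.23 and 11.23, at -0.21 on day 6, where its other probe sets were at 0.23 and 0.02. For Psmd11, a lid subunit, the probe sets disagreed. The brighter read 10.61, 10.29, 10.40 and 10.55, and the other 10.09, 10.23, 10.47 and 10.87, which is 0.78 above day 0 on day 9.

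The 20S chaperones Psmg1, Psmg2, Psmg3 and Psmg4 act as the pairs Psmg1 with Psmg2 and Psmg3 with Psmg4 to build the alpha ring. All 4 were below day 0 on each later array, against 44.3% of all genes, except that Psmg3 was at 0.01 on day 9 with median gene centring. Each read lower on day 6 than on day 3, as did 5804 of all 8802 genes. Their median was -0.51, -0.85 and -0.79. Psmg4 read 9.13, 8.47, 7.72 and 7.88, 2.64-fold below day 0 on day 6 and 2.37-fold on day 9. Its partner Psmg3 hardly differed, with 8.92, 8.80, 8.66 and 8.82. Psmg1 read 10.69, 10.06, 9.75 and 9.90, and Psmg2 10.11, 9.71, 9.34 and 9.33, so this pair ended close together, at -0.79 and -0.78. Under median gene centring Psmg4 stood at -1.24 (day 6) and -1.14 (day 9).

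The 19S chaperones showed no common course. Psmd10, also known as gankyrin, read 7.90, 8.63, 8.35 and 8.08, highest on day 3 and the 1 member 1.5-fold or more above day 0 there, though on day 9 it was at 0.17, or -0.46 when centred on the spike-ins. Psmd5 read 9.92, 9.54, 9.47 and 9.93, and Psmd9 9.88, 9.71, 9.81 and 9.50, at -0.38 on day 9 where its other probe set was at 0.08. The nuclear activator gene Psme4 read 9.79, 9.20, 9.33 and 9.73, a dip of -0.59 that had closed to -0.06 on day 9, but its other probe sets were at 0.18 and -0.57 on day 3. Of the names that are not subunits, Psmc3ip read 8.30, 8.59, 8.41 and 8.27 and Psme3ip1 9.27, 9.13, 8.93 and 8.80. The 2 bright probe sets shared by Psme3, Aoc3 and G6pc1 went opposite ways, at 0.34 and -0.52 on day 3.

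Partners of the proteasome outside the naming rule were read from a list of 28, of which 25 were measured. Their median was -0.20, -0.25 and -0.18 on days 3, 6 and 9. On days 3 and 6, 1 and 2 of the 25 were 2-fold lower, against 2.15% and 8.08% of all genes. On each of these days 1 was higher, against 4.31% and 5.74%. On day 9 none was 2-fold from day 0, where 6.25% of all genes were lower and 5.57% higher. Ubqln2, a shuttle for ubiquitinated proteins, was at -0.92, its relative Ubqln1 at 0.76 and the protease gene Ddi2 at 0.71. Ddi2 activates the factor encoded by Nfe2l1, which drives proteasome genes when the proteasome is impaired, and read 7.29, 8.34 and 8.47 on days 0, 3 and 6, 2-fold or more above day 0 on both later days. Nfe2l1 read 9.01, 9.54, 9.59 and 9.16. Usp14, a deubiquitinase of the cap, read 12.09, 11.41, 11.08 and 11.55 and was only just 2-fold lower on day 6, at -1.005. Zfand2a, a stress-induced proteasome adaptor, read 9.51, 8.28, 8.40 and 9.02 and was 2-fold lower on days 3 and 6. Pomp, the maturation factor of the 20S core, differed by no more than 0.34 in size.

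Genes of class I antigen presentation, the pathway the immunoproteasome feeds, differed in part. Of 18 listed, 15 were measured and 10 passed the value of 6, with a median of -0.28, -0.38 and -0.30 on days 3, 6 and 9. The peptide trimming enzyme gene Erap1 read 9.90, 8.95, 8.10 and 8.18, at -1.72 on day 9. It was the 1 gene of the 10 that was 2-fold lower then, against 6.25% of all genes. Tap2 read 7.65, 6.81, 6.36 and 6.75 and was 2-fold lower on day 6, as was Erap1 (2 of the 10, against 8.08% of all genes). Tap1, the neighbour of Psmb9, read 7.91, 7.64, 6.92 and 7.18, at -0.26 on day 3 where Psmb9 was at -0.95, and at -0.73 on day 9 where Psmb9 was at -2.21. The light chain gene B2m hardly differed, with 12.51, 12.65, 12.48 and 12.30. The class I genes RT1-CE5 and RT1-CE16 differed by at most 0.22, though probe sets of this family may read several near-identical genes.

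In the list of interferon signalling and response, 18 of 25 measured genes passed the value of 6, and they did not move as 1 group. On day 9, 4 of the 18 were 2-fold lower, against 6.25% of all genes, 2 were 2-fold higher, against 5.57%, and the median was -0.10. Among them Gbp4 reached 6 only on day 0 and Socs3 only on days 6 and 9. These genes are thus in the count only through the days on which they were high. Irf1, a factor that drives the immunoproteasome genes after interferon, read 7.83, 6.58, 6.03 and 6.23, with its lowest value on day 6. The guanylate-binding protein genes Gbp2 and Gbp4 were lower too, Gbp2 at -4.44 and Gbp4 at least 9.05-fold, set against the brightest bacterial control on the day 9 array. The receptor gene Ifngr2 read 7.85, 7.83, 7.10 and 6.47, so its difference came after day 3, whereas Ifngr1 read 9.12, 8.82, 9.37 and 9.64. Mx2 was 2.25 higher on day 9 and the feedback inhibitor gene Socs3 1.82, from 4.55 to 6.36. Nlrc5, a transactivator of class I genes, stayed below 6 on all 4 arrays.

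**Figure D4:**
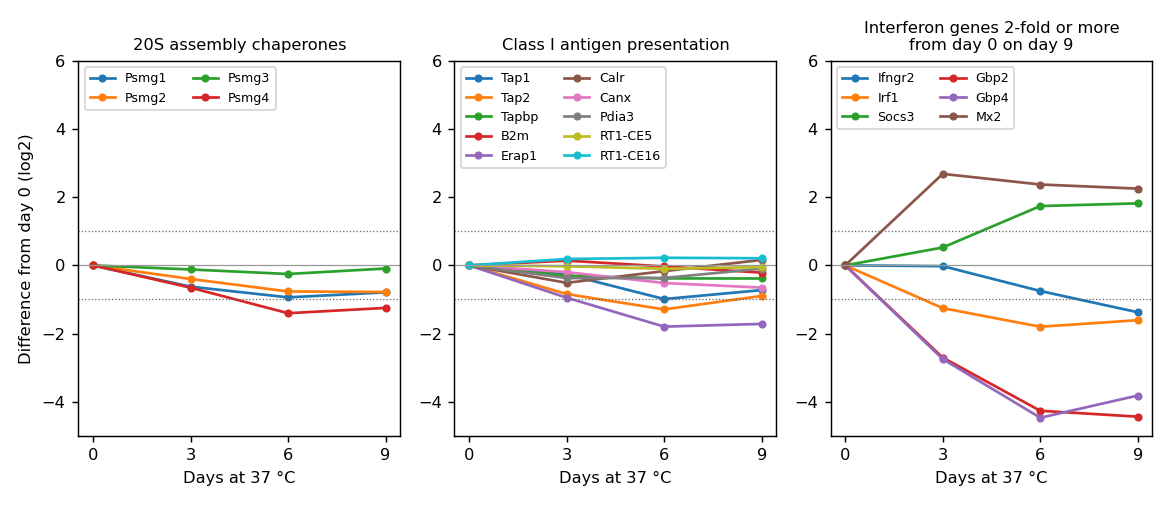
Difference from day 0 on the log2 scale over days at 37 °C for the 4 chaperone genes of 20S assembly, the 10 class I antigen presentation genes that passed the value of 6, and the 6 interferon genes 2-fold or more from day 0 on day 9, 1 array per day, dotted lines at 2-fold. Psmg4, Erap1 and Irf1 end at -1.25, -1.72 and -1.61, and the Gbp4 values of days 6 and 9 are not above the bacterial controls.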

How the data were processed

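RNA from ROE2 cells on each of 4 days was hybridised to 1 rat expression array per day. The deposited values are log2 expression values from RMA, per the submitters' processing notes, a method that corrects background, quantile normalizes and summarises probes into probe sets. Which software ran it, and how it was set, is not given. Quantile normalization gives the arrays nearly the same distribution (medians 5.22 to 5.24), so a shift of most genes in 1 direction would not be seen.

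Of 31099 probe sets, 20832 had 1 gene symbol in the platform annotation, 436 several and 9831 none. A gene took its probe set with the highest mean, giving 14218 genes. Differences between arrays were read among 8802 genes (61.9%) that reached 6 on the log2 scale on some array, and 2-fold was the threshold. With 1 array per day no test was made, and precision is limited by the number of arrays. As a yardstick, probe sets of 1 gene differed in their difference from day 0 by a median of 0.17, 0.41 and 0.38 on days 3, 6 and 9 over 2700 pairs. The genes to name were the 5 immunoproteasome and the constitutive catalytic genes, any other member 2-fold from day 0, the ends of each role group on day 9 and in brightness on day 0, and, of each list of other genes, those 2-fold from day 0 on day 9 or else the 3 largest. Further genes were named for their role after their values were seen. Members and lists were chosen with earlier results of these data known.

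Promoters came from RefSeq (GRCr8). A further promoter motif that had been planned is not reported here. The counting scripts were tested on simulated data. Alternatives were the filter, the probe set rule, the scaling, the threshold and the mean in place of the median. Python 3.11.15, numpy 2.4.6, pandas 2.3.3 and matplotlib 3.10.9 were used.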

Additional observations from a re-analysis of the deposited data

How the results depend on the processing

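Over 72 results and 12 settings, 628 of 663 comparisons stayed within the spread between probe sets of a gene, or within 1.5 times for a count, and 35 moved beyond it. Many of the 628 could not move. No filter, a filter at 5 and the use of probe sets with no mark of cross-hybridisation left the members and their values unchanged. Centring the arrays cannot alter a gap. No value of 2-fold or more changed sign, but 12 comparisons of smaller values did, the largest of them 0.29 in size. With a filter at 8, Psmb10 dropped out and 0 members were 2-fold lower on day 3. With the mean over all probe sets, Psme1 was at -0.17 on day 3 and the gap of Psmb8 to Psmb5 at -0.59. With arrays centred on the median gene, 3 members were lower on day 6. After a further quantile normalization 2 were lower on day 3. Centred on the spike-ins, which lowers every gene, 3, 9 and 11 were lower on days 3, 6 and 9, and the share of all genes was not computed. On day 9 that scaling put the constitutive median at -0.70, the immunoproteasome median at -1.73, Psmb8 at -2.15, Psmb9 at -2.85, Psmb10 at -1.08, Psme1 at -0.98 and Psme2 at -1.73. At 1.5-fold, 10 and 11 were lower on days 3 and 6, and 1 was higher on day 3 and 1 on day 9. At 3-fold, 0, 2 and 1 were lower. The cause of these moves was not tested, beyond the settings' own construction. Centring on genes with a mean of 10 or more was chosen after seeing the data.

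No paired analysis was possible because each day has 1 array, and leaving out replicates was not run for the same reason.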
